A study of Homo sapiens and Homo sapiens
Mus musculus and Mus musculus with 200 samples.

Results

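TWIST1 peaks that were present in HEK293 cells given TWIST1 alone and absent when ALX4 was added are described here and called lost sites. They were chosen on measured values: a V5 peak of replicate 1 of cells given pcDNA3.1_V5-TWIST1(WT) had to overlap a peak of replicates 2 and 3 and no peak of the 3 replicates given pcDNA3.1_ALX4-Flag as well. Of the 30471 peaks of replicate 1, 13242 were found in all 3 replicates without ALX4 (reproducible sites), and 1457 of these, 11% of them, were lost sites. The other reproducible sites comprised 6436 found in all 3 lists with ALX4, called kept sites, and 5349 found in 1 or 2 of them. A further 5329 sites, called gained, were found in all 3 lists with ALX4 and in none without.

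TWIST1 is a basic helix-loop-helix (bHLH) factor of the mesenchyme and the cranial neural crest. Proteins of this family bind DNA as dimers, with E-proteins or with themselves, at the E-box, a short word written CANNTG. ALX4 is a homeodomain factor of the developing face, whose family recognises words with a TAAT core, and the series concerns how TWIST1 and homeodomain factors share sites on DNA.

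HEK293 is a human embryonic kidney line. The cells were transfected with plasmids and harvested after 24 h, so the V5-tagged proteins measured there came from plasmids; whether the TWIST1 antibody also read TWIST1 of the cells' own was not tested. V5-TWIST1(WT) was profiled with a V5 antibody in 3 replicates without and 3 with ALX4-Flag. The same pairing exists as single lists for 13 TWIST1 variants, for the bHLH factor NEUROD1 (V5) and for pCAG-TWIST1 with pCAG-ALX4-Flag-HA (TWIST1 antibody). V5-TWIST1 was also profiled with the TWIST1 antibody alone and with ALX4, PRRX1a, PRRX1b, MSX1 or PHOX2A, and cells given the empty plasmid pUC19 were profiled for V5. Human cranial neural crest cells (hCNCC), derived from the H9 embryonic stem cell line, carry TWIST1 of their own. The groups used were unedited cells (WT) and the TWIST1FV line (clone c64), in which TWIST1 carries a tag that allows degradation with 500 nM dTAGV-1, at 0, 3 and 24 h, the ALX1FV line at 0 h, in which ALX1 carries a tag read by the V5 antibody, and ALX1FV ALX4- cells at 0 h, which lack ALX4 and carry a tagged ALX1, with replicates from clones c22 and c14. RS4;11 is a leukaemic lymphoblast line with a single TWIST1 list. No RNA was measured, so cell identity was not checked against expression markers, and the amounts of TWIST1 and ALX4 protein were not analysed here. No label says whether replicates came from separate cultures, so p-values measure the spread between these samples, which may be technical.

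The sequences at the strongest lost sites are shown first because the words in them recur through the values below. Each stretch of 81 bases was cut around CANNTG words within 100 bases of the peak summit. The stretches of STX11 and FMN2 do not reach the summit itself. Each is the plus strand of hg38 read 5′ to 3′, and has its CANNTG words in capitals. The first 6 hold neighbouring CANNTG words with 5 bases between them, an arrangement called a spaced pair here. PXYLP1 (chr3:141229307-141229387), CDON (chr11:126124445-126124525), ABTB3 (chr12:107479074-107479154) and STX11 (chr6:144138601-144138681) hold such a pair of core words, meaning CAGATG (with its reverse complement CATCTG), the word CAGCTG or the word CATATG. RARB (chr3:25155735-25155815) pairs CAGATG with CACCTG, and PITPNC1 (chr17:67444343-67444423) holds CATGTG at both places. Sites are named by the gene with the nearest annotated start site, which need not be the gene they act on.
PXYLP1: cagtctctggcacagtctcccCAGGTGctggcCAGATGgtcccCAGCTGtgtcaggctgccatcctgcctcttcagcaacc
CDON: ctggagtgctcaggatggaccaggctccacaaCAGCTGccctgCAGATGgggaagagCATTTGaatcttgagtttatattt
ABTB3: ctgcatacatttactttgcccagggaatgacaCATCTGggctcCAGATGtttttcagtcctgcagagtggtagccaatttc
STX11: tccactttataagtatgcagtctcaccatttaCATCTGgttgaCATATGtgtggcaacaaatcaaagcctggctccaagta
RARB: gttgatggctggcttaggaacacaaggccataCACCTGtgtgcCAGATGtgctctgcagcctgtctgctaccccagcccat
PITPNC1: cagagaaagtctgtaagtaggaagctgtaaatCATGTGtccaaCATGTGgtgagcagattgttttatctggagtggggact

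The stretches of other strong lost sites showed a single CANNTG word, as at LRRN1 (chr3:3799241-3799321) and FMN2 (chr1:240029571-240029651). Within 100 bases of the summit, LRRN1 held 3 CANNTG words and FMN2 held 1. A single word was also shown by most stretches at the sites that went from the most variant lists without ALX4 to the fewest with it. SIX3 (chr2:44959127-44959207) is an example. Within 100 bases of their summits these sites held 1 to 3 CANNTG words, with 2 at SIX3. A separate kind of lost site is crowded with CANNTG words, often inside CA-rich repeats. PAX7 (chr1:18658970-18659090) and DHX35 (chr20:39052839-39052959), chosen after their values were seen, show the crowding over a longer stretch. The repeat word CACACACA or TGTGTGTG lay within 100 bases of the summit at PAX7 and not at DHX35.
LRRN1: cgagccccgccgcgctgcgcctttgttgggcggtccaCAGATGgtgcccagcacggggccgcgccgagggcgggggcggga
FMN2: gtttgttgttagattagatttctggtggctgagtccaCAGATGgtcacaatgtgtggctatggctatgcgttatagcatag
SIX3: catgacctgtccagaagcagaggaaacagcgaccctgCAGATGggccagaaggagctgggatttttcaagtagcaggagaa
PAX7: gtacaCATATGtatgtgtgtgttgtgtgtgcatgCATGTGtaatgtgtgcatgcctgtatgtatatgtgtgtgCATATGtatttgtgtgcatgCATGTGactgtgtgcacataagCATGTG
DHX35: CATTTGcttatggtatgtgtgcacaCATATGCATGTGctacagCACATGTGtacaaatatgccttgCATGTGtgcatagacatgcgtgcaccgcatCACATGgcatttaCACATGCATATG

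The deposited lists give each peak a fold enrichment and a −log10 p, which are the authors' own values and describe peaks within a list. The lists behind the rule held 30471, 22465 and 56014 peaks without ALX4 and 29430, 41369 and 65005 with it. Lost sites were weaker peaks than kept sites: the median fold enrichment in replicate 1 was 3.95 for lost and 4.85 for kept sites, and the median −log10 p was 7.37 and 11.9. Because these lists chose the sites, the values are a description. Just outside the rule lay 2087 sites found in a single list with ALX4, with a median fold of 4.14 and a median −log10 p of 8.47. Of those, 1666 were found only in replicate 3 with ALX4, the longest list, 290 only in replicate 2 and 131 only in replicate 1. Lost sites were also narrower, with a median width of 620 bp against 878 bp. Not all were weak, since 96 of them (6.59%) ranked in the top decile of the replicate 1 list, against 29.4% of kept sites.

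The absence with ALX4 did not come with a peak close by for most sites. The median distance from a lost site to the nearest peak of any list with ALX4 was 8383 bp, and 179 of 1457 had one within 1000 bp. Gained sites did not lie beside them either: the median distance from a lost summit to the nearest gained summit was 192159 bp, and 41 lost sites (2.81%) had a gained summit within 10000 bp, against 8.92% of kept sites.

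The strongest lost site lay in the promoter interval, 653 bp downstream of the start of PXYLP1, which encodes a phosphatase of proteoglycan synthesis (chr3:141228982-141229653). Its fold enrichment was 15.2, 15.8 and 30.7 in the 3 replicates. The next, 61133 bp upstream of the nearest start site of CDON, a hedgehog co-receptor gene, and in an exon of an unnamed lncRNA (chr11:126124079-126124918), had 15.1, 11.4 and 10.9. A site in an intron of RARB, a retinoic acid receptor gene (chr3:25155485-25156063), had 12.6, 12.5 and 22.6, and a site in an intron of ABTB3 (chr12:107478866-107479493) had 12.1, 12.3 and 13.9. Each of these 4 was high in every replicate without ALX4 and had no peak in any replicate with it. Of the 14 sites named for being strongest of all, strongest among sites also bound in hCNCC, or strongest among sites bound in RS4;11 and not in both WT hCNCC lists, 11 held a spaced pair. Of the 8 sites that went from the most variant lists to the fewest, 0 did. The pair was in 12.9% of all lost sites, 5.16% of all reproducible sites and 46.9% of the lost sites in the top decile. At 12.9%, few or none of 8 sites would hold it, so 0 of 8 does not set those sites apart.

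Lost sites lay away from promoters. Of 1457, 338 (23.2%, Wilson 95% interval 21.1 to 25.4) were within 1 kb of an annotated start site, against 45.6% of kept sites and 42.2% of all reproducible sites. Introns held 43.1% of lost and 31.7% of kept sites, intergenic sequence held 27.6% and 17.5%, and exons 6.11% and 5.21%. Gained sites were rarer still at promoters, at 7.17%. The intervals on shares cover counting error only. The median distance to the nearest start site was 10089 bp for lost sites and 1722.5 bp for kept sites. Strong promoter sites included LRRN1, 110 bp upstream of the start of a neuronal leucine-rich repeat gene (chr3:3798790-3799691), and TAMALIN, 86 bp upstream (chr12:52009668-52010971). A weaker promoter site, with fold enrichments of 4.83, 4.87 and 4.48, lay 79 bp downstream of the start of LHX1, a kidney and head homeodomain factor (chr17:36938220-36938885). The share of reproducible sites that was lost ran from 6.07% on chromosome 6 to 22.9% on chromosome 22, with 17.8% on chromosome 9 and 18.1% on chromosome 20. Lost sites therefore made up unequal parts of the TWIST1 sites of different chromosomes.

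The lost sites had 1246 nearest genes, 159 of them with more than 1 lost site. ADARB2, an RNA-editing family gene, had 6. COL18A1, a collagen gene, NTMT1, RBFOX3, TBC1D22A and TLE3 had 5 each. TLE3, a Groucho-family corepressor, also had 12 kept sites, whereas COL18A1 had 0. COL5A1, another collagen gene, and VEGFA, the vascular growth factor, had 4 lost sites each, beside 0 and 1 kept sites.

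Genes of pathways in which TWIST1 and homeodomain factors act were looked up among the nearest genes. Of the 30 genes of the bHLH list (bHLH factors, E-protein partners and ID inhibitors), 5 had a lost site: HEY2, ID2, ID3, NEUROD1 and NEUROD2. These made up 0.480% of lost, 0.420% of kept and 0.385% of all reproducible sites, and 16 of the 30 genes had a reproducible site. ID proteins are dominant inhibitors of bHLH dimers. The site assigned to ID2 was distal, 354111 bp upstream and in an exon of LINC00299 (chr2:8324327-8325019), with fold enrichments of 7.17, 8.07 and 9.996. The site 83476 bp upstream of NEUROD1 (chr2:181763977-181764837) had 6.20, 6.14 and 8.23 and was in 10 variant lists without ALX4 and 13 with it. It was therefore lost with TWIST1(WT) and not with the variants. Of the 45 homeodomain genes, 7 had a lost site, among them MSX2, DLX2, LHX2 and PRRX1. Of the 30 neural crest specifiers, 7 did, among them ETS1, PAX7, SOX6 and TBX3, at 0.480% of lost, 0.699% of kept and 0.612% of all reproducible sites. Of the 26 craniosynostosis genes, 4 did, with ERF, MSX2 and SMAD6 among them, at 0.275%, 0.264% and 0.279%, which is level with the background.

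Cadherin, matrix and epithelial-mesenchymal transition genes had 12 lost sites (0.824%) next to 8 of the 35 genes, against 0.528% of kept and 0.491% of all reproducible sites. They included CDH4, CDH11 and CDH13 of the cadherins, LAMA5, SPARC, TNC and COL5A1 of the matrix genes and the growth factor gene TGFB2. Kidney and urogenital factors had 7 lost sites (0.480%, against 0.171% of kept and 0.242% of all reproducible sites) next to LHX1, PAX2, RET, SALL1 and TFCP2L1. BMP, FGF, WNT, hedgehog and Notch genes had 20 (1.37%, against 1.103% of kept and 1.0497% of all reproducible sites) next to 14 of 86 genes, including AXIN2, BMP2, BMP7, NOTCH1, SMAD7, SPRED2, WNT7B and WNT9A. Homeodomain genes had 0.549% of lost, 0.622% of kept and 0.476% of all reproducible sites. These counts are small, and nothing particular to a list was shown by them.

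The TWIST1 lists that the rule did not use gave the same sites a second reading. With pCAG-TWIST1, a different plasmid and antibody, 83.0% of lost sites (1209 of 1457) were overlapped without ALX4 and 20.4% with it, while kept sites went from 93.8% to 89.1%. All reproducible sites stood at 89.8% and 67.4%. The list with ALX4 was the longer of the pair, at 64536 peaks against 50196. V5-TWIST1 read with the TWIST1 antibody gave shorter lists and lower shares: 36.2% of lost sites without a partner and 1.92% with ALX4 (95% interval 1.33 to 2.76), against 69.5% and 53.0% of kept sites, and 56.9% and 31.1% of all reproducible sites. Of the 528 lost sites found without a partner there, 515 (97.5%) had no peak with ALX4. The same held for 41.002% of the kept sites and 59.5% of all the reproducible sites found without a partner. No test applies to these single lists.

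The other homeodomain partners gave low shares at the lost sites too. With PRRX1a, a paired-related factor of limb and face mesenchyme, 3.5003% of lost sites were overlapped, with its isoform PRRX1b 5.49%, with MSX1 0.892% and with PHOX2A, a factor of autonomic neurons, 6.93%. The matching shares of all reproducible sites were 32.4%, 38.6%, 8.71% and 28.3%, and those of kept sites 51.7%, 60.3%, 15.3% and 42.8%. The lists held 12288, 17317, 2498 and 7023 peaks, against 15395 without a partner. The PRRX1b list, which was longer than the list without a partner, still held 80 lost sites against 528. The MSX1 list was the shortest and gave the lowest share of these partners at lost, kept and all reproducible sites. The part played by list length was not tested. The differences between partners were not tested, and the lists differed in length. At lost sites the highest share was with PHOX2A, whose list was shorter than those of PRRX1a and PRRX1b.

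Among the TWIST1 variants, the largest drops at lost sites were in L138F and L138Y, named for a single amino-acid substitution. L138F overlapped 85.5% of lost sites without ALX4 and 19.5% with it, and kept sites were at 95.9% and 96.2%. L138Y went from 79.6% to 22.7%, with kept sites at 93.3% and 93.5%. All reproducible sites stood at 92.8% and 77.6% for L138F and at 89.1% and 75.2% for L138Y. The L138F lists were of similar length, 45391 and 47397 peaks, so that pair shows the drop without a shorter list. Of 964 lost sites found in the L138F, L138Y and pCAG lists without ALX4, 479 (49.7%, 46.5 to 52.8) had no peak in any of the 3 lists with ALX4. The same held for 11 of 5566 kept sites (0.198%) and for 8.19% of reproducible sites.

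The 11 variants named for a loop or insertion of NEUROD1, NEUROG2, TAL1 or HAND2, or with the names NEUROD1L, NEUROD1M and NEUROD1R, spread widely. NEUROD1L went from 61.1% to 11.5% of lost sites and the NEUROD1 loop variant from 29.4% to 8.44%, but their lists with ALX4 were also the shorter ones, 8559 against 26878 peaks and 9190 against 14683, and kept sites dropped by 24.5 and 14.1 points. NEUROD1ins went from 51.1% to 38.6%, NEUROG2ins from 75.8% to 65.4%, TAL1ins from 77.6% to 70.6% and NEUROD1M from 22.6% to 15.9%. In these 4 the share of kept sites was higher with ALX4 while that of lost sites was lower. HAND2loop was nearly level at 30.2% and 29.4%. In 4 variants more lost sites were overlapped with ALX4: NEUROD1R (35.1% to 36.9%), NEUROG2loop (62.1% to 67.7%), HAND2ins (59.8% to 67.9%) and TAL1loop (37.2% to 64.2%). For TAL1loop the list with ALX4 had 41596 peaks against 21203, and all reproducible sites went from 61.3% to 89.8%.

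Over the 13 variants the share of lost sites with ALX4 minus that without averaged -14.5 percentage points (SD 27.3, n = 13), lower in 9 of 13, and the exact sign-flip test (two-sided) gave p = 0.0894. When the pair of lists was cut to the length of the shorter, the share was lower in 12 of 13, NEUROG2loop being the exception, the mean was -16.9 and the exact sign-flip p was 0.000732. The call therefore differed between the lists as deposited and lists cut to equal length. The cut drops the weakest peaks of the longer list, and why the call changed was not tested. Against the kept sites of the same lists, the change at lost sites was lower in 12 of 13 variants, with a mean of -19.0 points (SD 20.4, n = 13, exact sign-flip p = 0.000732, where 0.000244 is the smallest possible). It ran from -66.4 points in L138F to 3.01 in TAL1loop. Each variant is a different construct with a single pair of lists, so these p-values measure the spread between constructs and not between repeats. Lost sites are weaker peaks than kept sites. Among sites that ranked below the median of the replicate 1 list the difference was -21.2 points, lower in 13 of 13 variants (exact sign-flip p = 0.000244). That cut does not match lost and kept sites for strength, and the part played by strength was not tested. L138F and L138Y carried much of both means. Without them, chosen after seeing the data, the share of lost sites changed by -5.96 points (exact sign-flip p = 0.357) and the difference from kept sites was -11.2 (exact sign-flip p = 0.00293).

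**Figure D1:**
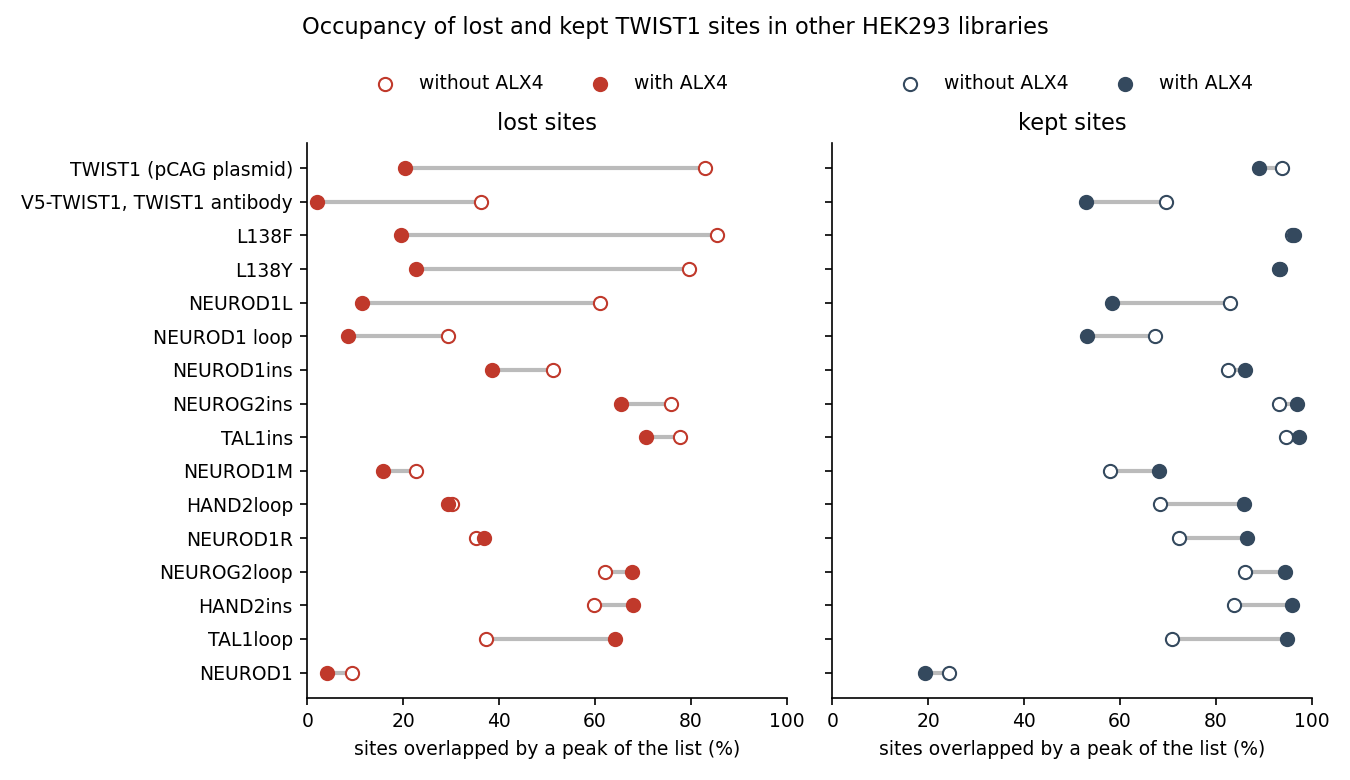
Percent of lost sites (left) and kept sites (right) overlapped by a peak of each list, without ALX4 (open points) and with it (filled), for pCAG-TWIST1, V5-TWIST1 read with the TWIST1 antibody, 13 variants and NEUROD1. Each point is 1 list and a line joins a pair. L138F and L138Y drop from 85.5% and 79.6% to 19.5% and 22.7% at lost sites and are at 93.3% to 96.2% at kept sites, while TAL1loop is higher with ALX4 at both.

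Counted per site, a lost site was in a median of 7 of the 13 variant lists without ALX4 and 5 of the 13 with it, and a kept site in 11 and 12. Of 1457 lost sites, 995 (68.3%) were in fewer variant lists with ALX4 and 329 in more, against 26.4% of kept sites in fewer. Only 7 lost sites were in none of the 26 variant lists, and 3 were in none of the 37 other HEK293 lists: those at ENOX2, ODF3L1 and GRHPR, with fold enrichments in replicate 1 of 3.55, 3.53 and 2.97. At the other end, the sites at SIX3 and CACNA1I were in 12 and 13 variant lists without ALX4 and in 0 and 2 with it. SIX3 is a homeodomain factor of the forebrain and eye, and CACNA1I a calcium channel gene. The SIX3 site (chr2:44958779-44959384), 17463 bp downstream of the start, had fold enrichments of 4.29, 5.27 and 9.97 in the 3 replicates, and it had no peak in the NEUROD1 list without ALX4 or in the lists of V5-TWIST1 read with the TWIST1 antibody, without ALX4 or with it. The RARB site was in 5 variant lists without ALX4 and 9 with it, and the PXYLP1 site in 6 and 6.

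NEUROD1 itself, a neuronal bHLH factor, overlapped 9.20% of lost sites without ALX4 and 4.05% with it, in lists of 5097 and 3925 peaks. Kept sites stood at 24.4% and 19.4%, and all reproducible sites at 19.4% and 14.2%. The empty plasmid pUC19 gave 463 V5 peaks, which overlapped 33 lost sites (2.26%, 1.62 to 3.16) and 1.28% of all reproducible sites. Of lost sites crowded with CANNTG words it overlapped 13.9% (9.38 to 20.2), and of the 49 kept sites so crowded 8.16% (3.22 to 19.2). These cells were given no V5-tagged protein.

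Outside HEK293, a smaller share of lost than of kept sites was overlapped in each TWIST1 list of WT hCNCC, ALX1FV ALX4- and RS4;11 cells. In WT hCNCC at 0 h, 16.8% and 13.1% of lost sites were overlapped in replicates 1 and 2, against 55.0% and 50.2% of kept sites and 45.0% and 40.5% of gained sites. All reproducible sites stood at 41.7% and 36.7%. With a further TWIST1 antibody (Abcam) the share was 20.7%, against 41.4% of all reproducible sites. WT cells at 3 h of dTAGV-1, whose TWIST1 is not tagged, gave 16.9% and 16.4%. In TWIST1FV cells at 0 h, 11.9% and 8.17% of lost sites were overlapped, against 25.9% and 19.3% of all reproducible sites. At 3 h 1 and 0 of 1457 lost sites were overlapped. The lists then held 835 and 739 peaks and overlapped 1.25% and 1.057% of all reproducible sites. In RS4;11 the share was 43.6% (41.1 to 46.1), against 61.3% of kept sites, 9.95% of gained sites and 58.6% of all reproducible sites. RS4;11 thus held a larger share of lost than of gained sites, and WT hCNCC the reverse. AP2a, a neural crest factor profiled with a pair of antibodies, overlapped 18.4% and 17.4% of lost sites, 41.1% and 38.9% of kept sites and 7.75% and 6.38% of gained sites. Of all reproducible sites AP2a overlapped 36.7% and 34.7%. The 4 V5 lists of tagged ALX1, from ALX1FV and ALX1FV ALX4- cells, held 376 to 1389 peaks and overlapped 0 of 1457 lost sites, which allows a share of up to 0.206%. They overlapped 0.264% to 0.944% of all reproducible sites, 0.513% to 1.82% of kept sites and 1.41% to 3.83% of gained sites, so few sites of any class were in them.

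In hCNCC without ALX4 more of the lost sites were bound. ALX1FV ALX4- cells gave 25.8% and 22.1% (24.0% ± 2.62, SD, n = 2). WT cells averaged 15.0% ± 2.62 (SD, n = 2), which is 8.99 percentage points lower. The values of the groups did not overlap, and the exact permutation test (two-sided) gave p = 0.3333, the smallest value that 2 against 2 allows. Part of this was seen in all reproducible sites, which differed by 4.18 points with overlapping groups. Kept sites differed by 1.74 points, also with overlapping groups, and gained sites by -7.94 points, without overlap. The lists of ALX1FV ALX4- were not longer than those of WT, at 52890 and 43274 peaks against 59282 and 49107. Site by site, 81 lost sites were in both ALX1FV ALX4- lists and in neither WT list, and 6 the reverse. At gained sites these numbers were 18 and 243. All 4 lists held 9.47% of lost sites, and 1003 lost sites were in none. The loss of ALX4, the ALX1 tag and the clone cannot be told apart, and spike-in chromatin was added to the WT libraries only.

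**Figure D2:**
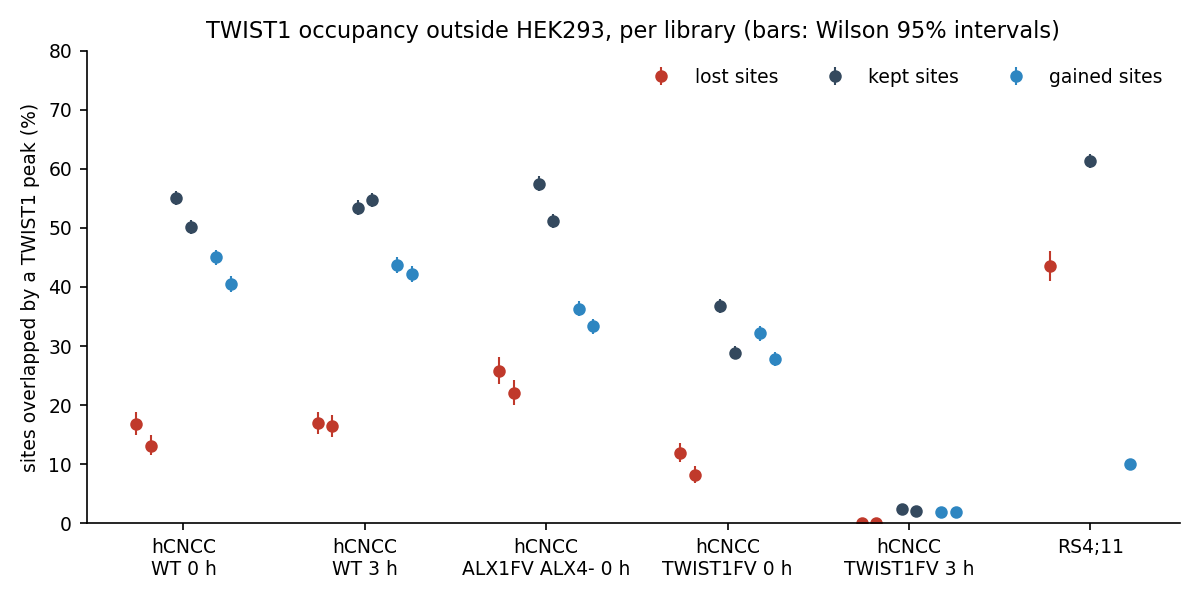
Share of lost, kept and gained sites overlapped by TWIST1 lists of hCNCC and RS4;11, in percent; points are single lists and bars Wilson 95% intervals (counting error only). At lost sites both ALX1FV ALX4- lists (25.8% and 22.1%) lie above both WT lists at 0 h (16.8% and 13.1%), and at gained sites they lie below.

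Single sites showed the range. The RARB site had a TWIST1 fold enrichment of 74.1 and 45.5 in WT hCNCC and 193 and 135 in ALX1FV ALX4- cells. The site in SLC12A8, a transporter gene (chr3:125186605-125187291), had 6.49 and 7.07 in WT and 104 and 54.2 without ALX4, and the FMN2 site, in an intron of an actin-nucleating formin gene (chr1:240029229-240029853), 30.3 and 39.8 against 97.5 and 71.0. At these 3 sites both values without ALX4 were the higher ones. At FGF6 they were not, at 175 and 104.8 against 97.9 and 115 in WT, nor at AXIN2, at 5.03 and 4.01 against 5.93 in 1 WT list and no peak in the other. The STX11 site had a peak in replicate 1 of each group, at 4.16 without ALX4 and 8.30 in WT. The PPP2R3B site (chrX:356102-357048) had no WT peak and folds of 22.03 and 14.3 without ALX4. Each fold is relative to its own list's background, so the values are set side by side as a description, with no test. In RS4;11 the SPRED2 site reached a fold of 300 and the PXYLP1 site 167, while the GRIA1 and LRRN1 sites had no peak there.

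The words in the DNA were counted in windows reaching 100 bases to either side of the summits, on both strands, and in windows 1000 bp to either side (flanks). A match is a description of the letters, not a binding site. A core word, as defined above, was present in 57.2% of lost, 53.6% of kept and 46.7% of gained sites, and in 25.8% of the flanks of lost sites. In the top decile of the replicate 1 list a core word was in 87.5% of lost sites (79.4 to 92.7) and 70.5% of kept sites, and over all sites more than 1 core word was in 23.1% of lost and 15.7% of kept sites. The homeodomain words TAATTA or TAATTG were present in 3.64% of lost sites (2.79 to 4.73), 9.18% of kept and 29.5% of gained sites, with 9.16% in the flanks of lost sites. TAAT alone, which these words contain, was in 33.1%, 47.9% and 89.4%, and in 56.4% of lost flanks. The composite of a core word and TAATTA or TAATTG with 4 bases between them occurred in 0 of 1457 lost sites (a Wilson upper limit of 0.263%), in 0.280% of kept and in 1.93% of gained sites. At lost sites the share with homeodomain words was thus below that of their own flanks, as it was at kept sites and not at gained sites.

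CACATG or CATGTG was present in 35.6% of lost sites (33.2 to 38.1) against 22.4% of kept sites, and in 13.7% of lost flanks. CATATG was in 11.1% against 5.56%, and CACGTG, the word of MYC and USF proteins, in 13.1% against 8.64%. The repeat word CACACACA or TGTGTGTG was in 15.9% against 4.06%, and 4.91% of lost flanks. The AP-1 word TGAGTCA or TGACTCA was in 13.4% of lost and 10.3% of kept sites. GGGCGG, a word of CpG-rich promoters, was in 17.0% of lost and 27.5% of kept sites.

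Lost sites held more CANNTG words in all, 2.78 ± 2.59 (SD over 1457 sites) per window against 1.72 ± 1.28 at kept sites and 1.15 in the lost flanks. Windows with 6 or more made up 11.4% of lost sites (166 sites) and 0.792% of kept sites. Seen the other way, 166 of 298 reproducible sites with 6 or more CANNTG words were lost, 55.7% (50.0 to 61.2) against 11% of all reproducible sites.

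The spaced pair, CANNTG words with 5 bases between them, was present in 12.9% of lost sites (188 sites), 3.79% of kept sites and 0.892% of lost flanks. Among gaps from 0 to 30 bases, 5 had the highest share in lost sites, and the next, a gap of 4, had 6.86%. With core words on both sides the pair was in 62 lost sites (4.26%) and 55 kept sites (0.855%), and a gap of 14 came next at 0.961% of lost sites. Of 185 reproducible sites with a pair of core words, 33.5% (27.1 to 40.6) were lost. Sites with this pair were strong, so it was also looked at among the strongest peaks. That cut does not match lost and kept sites for strength. In the top decile of the replicate 1 list, 45 of 96 lost sites (46.9%, 37.2 to 56.8) held a spaced pair, against 159 of 1894 kept sites (8.39%), and a pair of core words was in 18.8% against 2.22%.

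**Figure D3:**
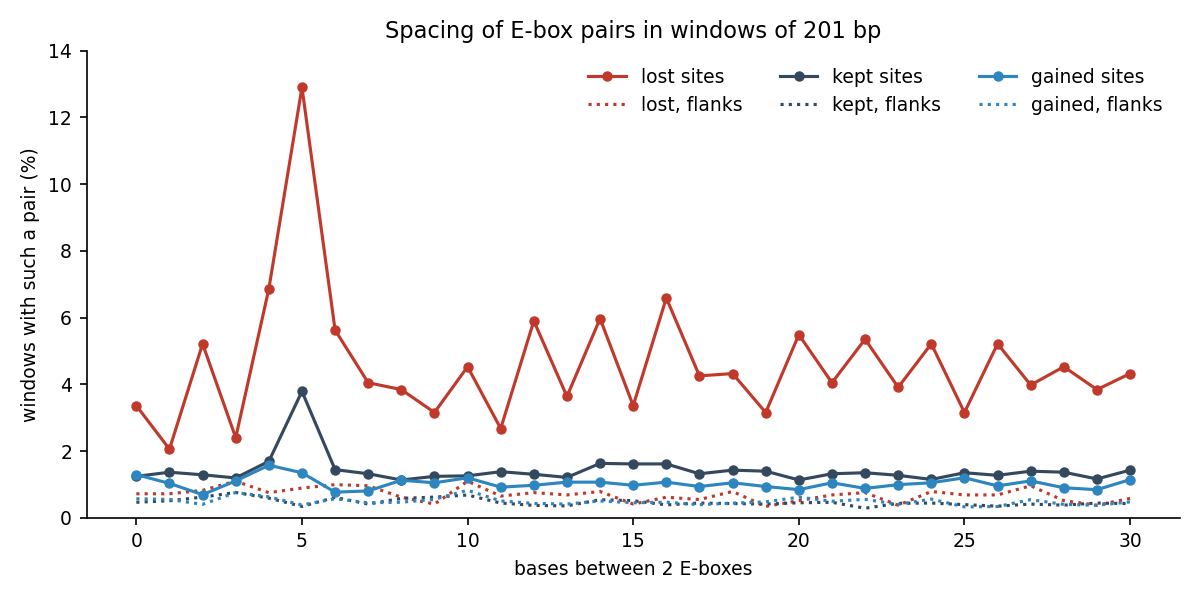
Percent of lost, kept and gained sites (lines with points) and of their flanks (dotted) that hold CANNTG words separated by each gap from 0 to 30 bases within 100 bases of the summit. The gap of 5 bases stands highest in lost sites, at 12.9% against 3.79% of kept sites.

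Sorted by these words into separate classes, the lost sites differed in their shares in other lists. The 62 sites with a core spaced pair were the strong ones, with a median fold of 5.73. They were overlapped by L138F in 100% without ALX4 and 19.4% with it, and by RS4;11 in 66.1%. In WT hCNCC 54.8% and 46.8% of them were bound, and in ALX1FV ALX4- cells 79.0% and 75.8%. Kept sites with the same pair were at 78.2% and 72.7% in WT and at 87.3% and 85.5% without ALX4, and L138F held 98.2% of them with ALX4. So the pair alone did not mark a site as lost.

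The 158 lost sites with 6 or more CANNTG words and no core spaced pair were the reverse. Only 3.797% and 3.16% of them were bound in WT hCNCC, 7.59% and 6.96% in ALX1FV ALX4- cells and 17.1% in RS4;11, and 71.5% held the CA-repeat word. In HEK293 they were in a median of between 10 and 11 variant lists without ALX4 and of 7 with it. NEUROD1 overlapped 7.59% of them. L138F went from 94.3% to 3.797%, while TAL1ins stood at 89.9% and 83.5%. Kept sites of the same class (49) were at 51.0% and 42.9% in WT hCNCC and at 57.1% and 51.0% in ALX1FV ALX4- cells. RS4;11 bound 61.2% of those kept sites, L138F held 93.9% of them with ALX4, and 14.3% held the CA-repeat word. So crowding alone did not go with a low share in other cells. The 667 remaining lost sites with a core word were bound in WT hCNCC in 21.0% and 15.9% and without ALX4 in 32.8% and 28.8%. Sites with other CANNTG words only (384) were at 9.64% and 6.51%, then 13.3% and 10.7%. The 186 lost sites with no CANNTG word lay within 1 kb of a start site in 48.4%, against 8.23% of the crowded class, and RS4;11 bound 51.6% of them. For kept sites with no CANNTG word these shares were 61.2% and 65.1%.

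**Figure D4:**
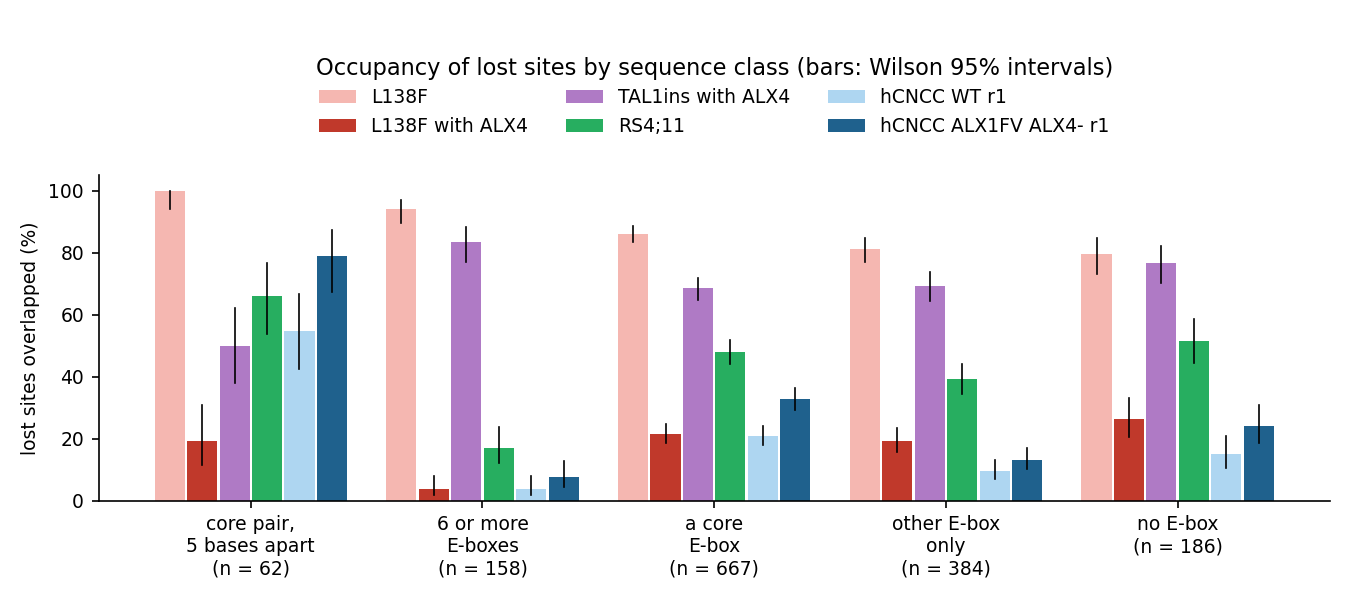
Percent of lost sites in each sequence class overlapped by 6 TWIST1 lists (bars), with Wilson 95% intervals as lines (counting error only). Sites with a core spaced pair (62) are the class most often bound in hCNCC, at 54.8% in WT replicate 1, and sites with 6 or more CANNTG words (158) the least, at 3.797%.

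H3K27ac, a histone mark of active enhancers and promoters, was measured in TWIST1FV hCNCC after TWIST1 degradation as counts over merged ATAC-seq peaks (accessible chromatin), with 7163998 to 8817125 counts per library. Of the 1457 lost sites, 834 lay over 914 such regions, and 673 regions passed the filter on low counts. With the quasi-likelihood test of edgeR, adjusted by Benjamini-Hochberg over all tested regions with a threshold of 0.05, 17 of these regions fell at 3 h (2.53%) and 7 rose (1.04%), where 4.28% of all 123361 tested regions fell and 1.01% rose. At 24 h 43 fell (6.39%) and 19 rose (2.82%), beside 9.49% and 4.28% of all regions. The share that fell was thus below that of all regions at both times. It was level with the share over all reproducible sites, where 2.53% of regions fell at 3 h and 6.37% at 24 h. Without TWIST1FV 0 h replicate 1 the calls in either direction numbered 12 in place of 24 at 3 h and 36 in place of 62 at 24 h, and without 0 h replicate 2 they numbered 14 at 3 h. Of the regions called at both times, 16 fell at both, 3 rose at both and 0 went in opposite directions.

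Most regions that fell lay over lost sites with a TWIST1 peak in hCNCC. Over the 156 lost sites found in both WT hCNCC lists at 0 h, 16 of 156 tested regions fell at 3 h (10.3%) and 42 at 24 h (26.9%), with a median log2 change of -0.53 at 24 h. Over the other lost sites, 1 of 517 regions fell at 3 h, another 1 fell at 24 h, and 18 rose at 24 h (3.48%), with a median of 0.19. At kept sites bound in both WT hCNCC lists 14.2% of regions fell at 24 h, and at gained sites, bound in hCNCC or not, 30.6%. In WT cells given the same compound, edgeR called 0 of 645 regions at each time, with 19 at 3 h and 22 at 24 h at an unadjusted p under 0.05. Library-size scaling in place of TMM shifts the median of all regions by 0.0885 at 3 h and 0.13 at 24 h on the log2 scale. It gave 15 falls and 11 rises at 3 h (42.3% rises, against 29.2%), so the split of the 3 h calls depends on the scaling. With replicate number as a block, 26 regions fell and 31 rose at 3 h (54.4% rises). Of all regions 8982 then fell and 3932 rose. The split of the 3 h calls thus depends on the block too, and whether replicate numbers pair the libraries is not known.

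The largest falls were at distal sites. At the FGF6 site, 16043 bp downstream of the start of a myogenic fibroblast growth factor gene (site chr12:4412420-4412876, region chr12:4412104-4412919), H3K27ac was 6.29 and 6.19 log2 CPM at 0 h, 4.06 and 4.06 at 3 h and 2.72 and 2.44 at 24 h, while the 6 WT libraries stayed between 5.89 and 6.15. All treated TWIST1FV libraries lay below all untreated ones. The log2 change at 24 h was -3.71 (SE 0.23, adjusted p = 4.91e-08). At the SPRED2 site, in an intron of LINC02934 and 413063 bp upstream of the gene of an inhibitor of RAS signalling (region chr2:65845450-65846274), the levels were 3.56 and 3.86, then 1.81 and 1.73, then -0.0009 and 0.12 log2 CPM, a change of -4.04 at 24 h (SE 0.44, adjusted p = 8.14e-06). At the MRGPRG site (region chr11:3202335-3203135) they were 2.90 and 2.86, then 1.39 and 0.73, then -0.40 and -0.88, a change of -4.15 (SE 0.55, adjusted p = 5.96e-05). The 3 sites had TWIST1 peaks in WT hCNCC, with folds of 97.9 and 115, 37.6 and 30.4, and 35.8 and 22.4.

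Among the strongest lost sites, H3K27ac at RARB was 3.57 and 3.00 log2 CPM at 0 h, 2.03 and 1.15 at 3 h and 1.296 and 1.70 at 24 h, a fall of 1.90 on the log2 scale at 24 h (adjusted p = 0.00546). In WT cells the RARB region was at 3.01 and 3.29 at 0 h and 2.50 and 2.65 at 24 h, a change of -0.60 (SE 0.30) that did not pass the test (adjusted p = 0.999). FMN2 fell by 1.53 (adjusted p = 0.00962) and BAIAP2, near the gene of an actin regulator of filopodia, fell by 1.23 (adjusted p = 0.0229). At LRRN1, SLC12A8 and PXYLP1 the changes of -0.11, -0.70 and -1.08 did not pass the test (adjusted p = 0.826, 0.454 and 0.356). The AXIN2 site, 33008 bp upstream of the gene of a WNT pathway inhibitor, was at 1.60 and 2.59 at 0 h, 3.18 and 3.22 at 3 h and 3.94 and 3.81 at 24 h, a rise of 1.74 (SE 0.36, adjusted p = 0.00276), and had a TWIST1 peak in 1 of the 2 WT lists (fold 5.93). The other largest rises were at low levels and at sites with no WT hCNCC peak. DHX35 went from -1.88 and -0.37 log2 CPM to 1.296 and 1.285 at 24 h, a change of 2.93 (adjusted p = 0.0464), PNMT changed by 2.64 (adjusted p = 0.0129) and SV2C by 2.50 (adjusted p = 0.0465). The DHX35 region (chr20:39052337-39052837) overlaps the lost site and ends just before the crowded sequence shown above begins.

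**Figure D5:**
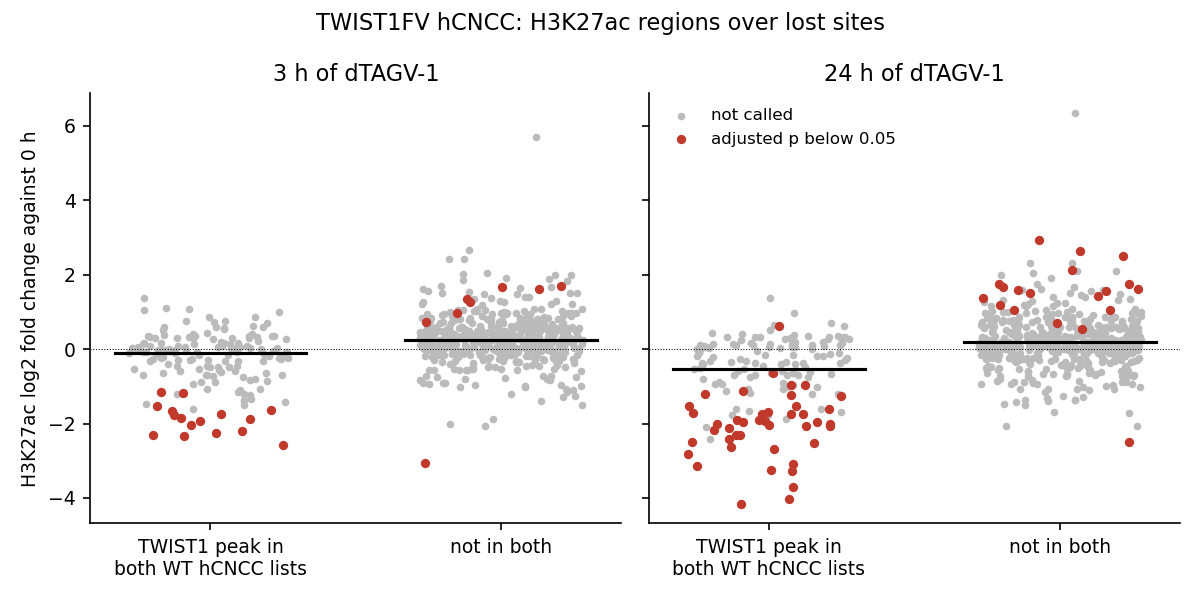
Change in H3K27ac after 3 h (left) and 24 h (right) of dTAGV-1 against 0 h in TWIST1FV hCNCC (log2, vertical) for the 673 tested regions over lost sites, split by whether the site was in both WT hCNCC lists; red points passed the test and black lines are medians. At 24 h 42 of 156 regions over bound sites fell, and 1 of the other 517.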

How the data were processed

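ChIP-seq peak lists were used as deposited, 1 list per sample. Per the file layout, the authors gave each peak a summit, a fold enrichment (a ratio over control) and −log10 values of p and q. Per the labels, the human files are in hg38, and the submitters' processing notes name Bowtie2 2.4.1, SAMtools 1.10, MACS2 2.2.7.1 and deepTools 3.5.0, with no settings. The authors deposited H3K27ac counts per merged ATAC-seq peak, not normalised. The read depth behind a peak list is not known from it, and the spike-in reads were not used.

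Sites are replicate 1 intervals, and 1 shared base was an overlap. Start sites, exons and introns came from GENCODE 44. Words were searched in the reference genome up to 100 bases from the summit. Shares have Wilson 95% intervals, for counting error only. A count of 0 allows 3. Changes over variants were tested by an exact sign-flip test and hCNCC lists by an exact permutation test (own Python 3.11.15 code, numpy 2.4.6). Counts were tested with edgeR 4.0.16 in R 4.3.3 (TMM, filterByExpr, 6 TWIST1FV libraries in 1 fit) after the code was tested on simulated data. Log2 CPM used a prior count of 2.

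Sites and gene lists were chosen with earlier results of these data known. Sites named in the text were the 10 strongest, the 6 strongest also in both WT hCNCC lists, the 6 strongest in RS4;11 and not in both of those, the 8 with the largest drop in variant lists, up to 3 in no other HEK293 list, up to 2 per gene list, up to 3 per direction of H3K27ac change, and up to 4 promoter sites. Others were chosen after their values were seen. Not every site this rule selects is described. Whether replicate numbers pair the TWIST1FV H3K27ac libraries across times is not known. Correlations of replicate differences were low and positive (0.105, 0.0766 and 0.140), and no label ties a number to a batch. Alternatives covered the overlap rule, peak strength, list length, single lists and libraries left out, window, summit, count filter, scaling, tool and block.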

Additional observations from a re-analysis of the deposited data

Results flagged for a closer look

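In 4 variants the share of lost sites was higher with ALX4, while it was lower in the other 9: by 1.72 percentage points in NEUROD1R, 5.56 in NEUROG2loop, 8.10 in HAND2ins and 27.04 in TAL1loop. Each is a single pair of lists, and the difference between the variants was not tested. With both lists of a pair cut to the length of the shorter, NEUROD1R was at -13.2, HAND2ins at -11.5, TAL1loop at -2.75 and NEUROG2loop at 8.44.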

How the results depend on the processing

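The number of lost sites, 1457, depends on the lists. It was 950 with a reciprocal overlap of 50% in the rule and 445 with a −log10 q of at least 5, and 1588 to 4407 with 1 list left out (3224 without TWIST1(WT) replicate 1, 4407 without replicate 2 and 3123 without replicate 3 with ALX4). The change over variants, -14.5 with p = 0.0894, passed the exact sign-flip test with pairs cut to the shorter list (-16.9, p = 0.000732), with the 10000 highest peaks (-13.7, p = 0.000488) and without TAL1loop (-18.0, p = 0.0210). It ran from -18.0 to -5.96 over 29 alternatives, and from -14.2 to -6.54 with 1 list of the rule left out. The difference from kept sites kept its side in all 29, from -22.5 to -11.0 (exact sign-flip p = 0.000244 to 0.0112). The hCNCC difference was 6.07 to 16.0 points over 11 alternatives, and 8.99 with the replicate block (exact paired p = 0.5, the smallest possible for 2 pairs). Of H3K27ac regions over lost sites, 24 were called at 3 h, 15 with no count filter and 57 with the replicate block (26 lower, 31 higher), and 12 to 32 with 1 library left out (12 without 0 h replicate 1, 14 without 0 h replicate 2). At 24 h 62 were called, 90 with the replicate block and 36 to 54 with 1 library left out (36 without 0 h replicate 1). The causes of these shifts were not tested. In a narrower window, 50 bases to either side of the summit, the spaced pair stood at 8.51% of lost sites and 6 or more CANNTG words at 2.75%. With a −log10 q of at least 5 they stood at 26.1% and 9.66%. The added alternatives (single variants, L138F and L138Y, crowded sites or pUC19 sites left out, and hCNCC lists of equal length) were chosen after seeing the data. The read depth behind each list is unknown, so a site absent from a list may hold signal below its threshold.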
